A study of Mus musculus with 12 samples.

Results

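The genes described here are 47 members of the Wnt signalling system, out of 19938 genes measured on 12 Affymetrix arrays of mouse hearts dissected at E8.75, in the second week of development. The rule that chose them goes by name and uses no measured value: every gene whose symbol is Wnt, Fzd, Sfrp, Dkk or Rspo followed by a number (and, for some, a letter), together with Lef1, Tcf7l1, Tcf7l2, Axin2, Lrp5 and Lrp6, each read on its brightest probe set that carried exactly 1 symbol. The rule was written with earlier results of these data known, among them the changes of Wnt5a and Lef1, so shares of the 47 beside those of all genes are descriptions. They comprised 19 Wnt ligands, 12 receptors and co-receptors, 8 secreted inhibitors, 4 R-spondins and 4 nuclear factors or feedback targets. Tcf7 was not analysed here. The 4 groups held 3 arrays each: hearts lacking both Tbx5 and Nkx2-5 (labelled Tbx5 KO;Nkx2-5 KO and called double KO below), Tbx5 KO hearts, Nkx2-5 KO hearts and WT hearts. Nkx2-5 and Tbx5 are transcription factors that act together on many genes of the early heart. Each title calls its sample a numbered biological replicate. Neither the alleles nor any pooling of hearts is stated in the labels, so the p-values measure the spread between these samples.

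Wnt ligands are secreted lipid-modified proteins that bind Frizzled receptors, and those that act with the co-receptors Lrp5 or Lrp6 stabilise beta-catenin, which enters the nucleus and acts through Lef1 and the Tcf factors. Other ligands, among them Wnt5a and Wnt11, act largely without beta-catenin, on cell shape and movement. Sfrp proteins bind the ligands, Dkk1 binds the co-receptors, and R-spondins raise receptor levels at the cell surface. In the early heart, beta-catenin signalling favours the growth of second heart field progenitors, while Wnt5a and Wnt11 help to form the outflow tract.

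Promoter windows are shown for Wnt2 and Lef1 because both genes rose in Tbx5 KO hearts against WT. The letters before their starts can thus be read beside the values. RefSeq gave a window of 300 bases (250 before to 50 after a start) on build GRCm38.p6 for 31 of the 47 genes. Wnt5a, Sfrp4 and Rspo3 were among the 16 with none. Both strands were searched for a T-box core (AGGTGT), an NKX2-5 core (TNAAGTG) and a TCF/LEF core (CTTTGA), and capitals mark every match. The Wnt2 window is on the minus strand and those of Lef1 are on the plus strand, all written 5′ to 3′. A further Lef1 window that overlapped the first was left out.
Wnt2, chr6:18030396-18030695: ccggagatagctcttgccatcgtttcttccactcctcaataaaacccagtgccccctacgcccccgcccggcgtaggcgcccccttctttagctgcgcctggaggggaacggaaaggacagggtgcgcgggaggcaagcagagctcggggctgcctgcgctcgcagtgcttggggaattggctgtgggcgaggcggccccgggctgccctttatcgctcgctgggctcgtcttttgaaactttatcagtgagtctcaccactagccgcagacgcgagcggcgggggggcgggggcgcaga
Lef1, chr3:131110047-131110346: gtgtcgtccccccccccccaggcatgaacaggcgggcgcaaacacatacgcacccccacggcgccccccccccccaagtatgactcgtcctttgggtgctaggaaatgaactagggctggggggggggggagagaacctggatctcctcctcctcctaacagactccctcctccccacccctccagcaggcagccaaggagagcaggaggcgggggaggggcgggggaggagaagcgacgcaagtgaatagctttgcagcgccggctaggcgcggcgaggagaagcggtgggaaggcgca
Lef1, chr3:131112541-131112840: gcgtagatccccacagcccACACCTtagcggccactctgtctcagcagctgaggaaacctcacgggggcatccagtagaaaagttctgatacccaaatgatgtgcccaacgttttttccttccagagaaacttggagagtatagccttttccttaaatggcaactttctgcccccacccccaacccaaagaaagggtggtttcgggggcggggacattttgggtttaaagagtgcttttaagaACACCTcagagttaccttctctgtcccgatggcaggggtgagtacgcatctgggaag
Lef1, chr3:131156044-131156343: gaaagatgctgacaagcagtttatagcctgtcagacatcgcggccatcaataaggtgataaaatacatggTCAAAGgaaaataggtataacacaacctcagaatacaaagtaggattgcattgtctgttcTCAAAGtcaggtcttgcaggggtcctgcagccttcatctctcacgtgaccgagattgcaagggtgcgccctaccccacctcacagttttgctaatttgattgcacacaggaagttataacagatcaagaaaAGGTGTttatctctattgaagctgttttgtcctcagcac
The Wnt2 window and the first Lef1 window held no match to the 3 motifs. The second Lef1 window held 2 T-box cores on the opposite strand (ACACCT as written), beginning 231 and 7 bases before the start. The third held 2 TCF/LEF cores on the opposite strand (TCAAAG as written), 180 and 120 bases before the start, and 1 T-box core 11 bases after it. Over all 32851 windows of the table, 13.7% held the T-box core, 11.5% the NKX2-5 core and 16.0% the TCF/LEF core. Among the 31 genes, 3, 4 and 5 held these cores in at least 1 window. A match describes letters in these windows and was not tested for binding.

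Values are log2 expression units per probe set. A change is a difference between 2 group means, followed by ± its standard error (SE) from a limma fit to all 12 arrays, with n = 3 arrays in each group. A gene was called, and is said to have risen or fallen, when its limma p, adjusted by the Benjamini-Hochberg method over all 19938 genes, was under 0.05. Array medians lay between 8.05 and 8.25, and no pair of arrays held identical values. Markers of cardiac muscle were bright, with the summed level of 7 genes between 16.37 and 16.43 in double KO, 16.41 and 16.48 in Tbx5 KO, 16.34 and 16.42 in Nkx2-5 KO, and 16.36 and 16.42 in WT hearts. Singly, Myh6 fell by 0.81 in double KO hearts against WT, Myh7 rose by 0.40 and Tnnt2 rose by 0.23, and 0 of the 7 were called in either single KO. The 2 rises were 28.6% of the 7, beside 9.05% of all genes called higher. The fall was 14.3%, beside 14.4% called lower. The Nkx2-5 probe set read 8.97 to 9.21 in double KO, 9.31 to 9.38 in Tbx5 KO, 8.72 to 9.13 in Nkx2-5 KO and 9.33 to 9.36 in WT hearts. The Tbx5 probe set read 10.31 to 10.83 in double KO, 10.42 to 10.73 in Tbx5 KO, 10.15 to 10.53 in Nkx2-5 KO and 9.90 to 10.15 in WT hearts, so it was no lower in hearts labelled as lacking the gene. Where these probe sets lie relative to the removed parts is unknown here, so neither checks the labels, and the groups are called by their labels throughout. Xist, transcribed from the inactive X chromosome, read 6.44 to 8.16 in double KO and 6.59 to 7.03 in Nkx2-5 KO hearts, against 11.5 to 12.3 in Tbx5 KO and 11.5 to 11.9 in WT hearts. The mean of the Y-linked genes Eif2s3y and Uty was high in the first pair of groups and low in the second, so embryo sex went with the presence of Nkx2-5. Sex and genotype cannot be told apart in double KO or Nkx2-5 KO against WT, Tbx5 KO against Nkx2-5 KO, or double KO against Tbx5 KO. Tbx5 KO against WT and double KO against Nkx2-5 KO each compare hearts of like Xist and Y-linked level.

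Of the 47 genes, 15 were called in at least 1 of 7 comparisons, 14 of them in at least 1 comparison with WT, and 0 in all 3 comparisons with WT. These counts across comparisons were not made for all genes, so whether they differ from those of all genes is unknown. In Tbx5 KO against WT, 4 rose (8.51% of the 47, beside 0.998% of all genes called higher) and 0 fell (beside 1.31% called lower). Those 4 were the ligands Wnt2 and Wnt5a, the inhibitor Sfrp4 and the nuclear factor Lef1. In Nkx2-5 KO against WT only the receptor gene Fzd7 was called, 1 of 47 (2.13%), near the 1.84% of all genes called higher, and 0 fell beside 2.59% called lower. In double KO against WT, 6 rose (12.8% of the 47, beside 9.05% of all genes) and 4 fell (8.51%, beside 14.4%). The first share is near and the second below that of all genes. The median change of the 47 was 0.09 in double KO, 0.03 in Tbx5 KO and 0.09 in Nkx2-5 KO hearts, and that of all genes was 0.06, 0.01 and 0.00 in the same order. The 32 genes called nowhere differed from WT by -0.44 to 0.40 in any KO group. On simulated data, with fewer changed genes than were called here, most true changes of 0.5 were missed. The 32 genes therefore cannot be called unchanged. In bulk hearts, fewer cells of a type and less RNA per cell cannot be told apart.

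**Figure D1:**
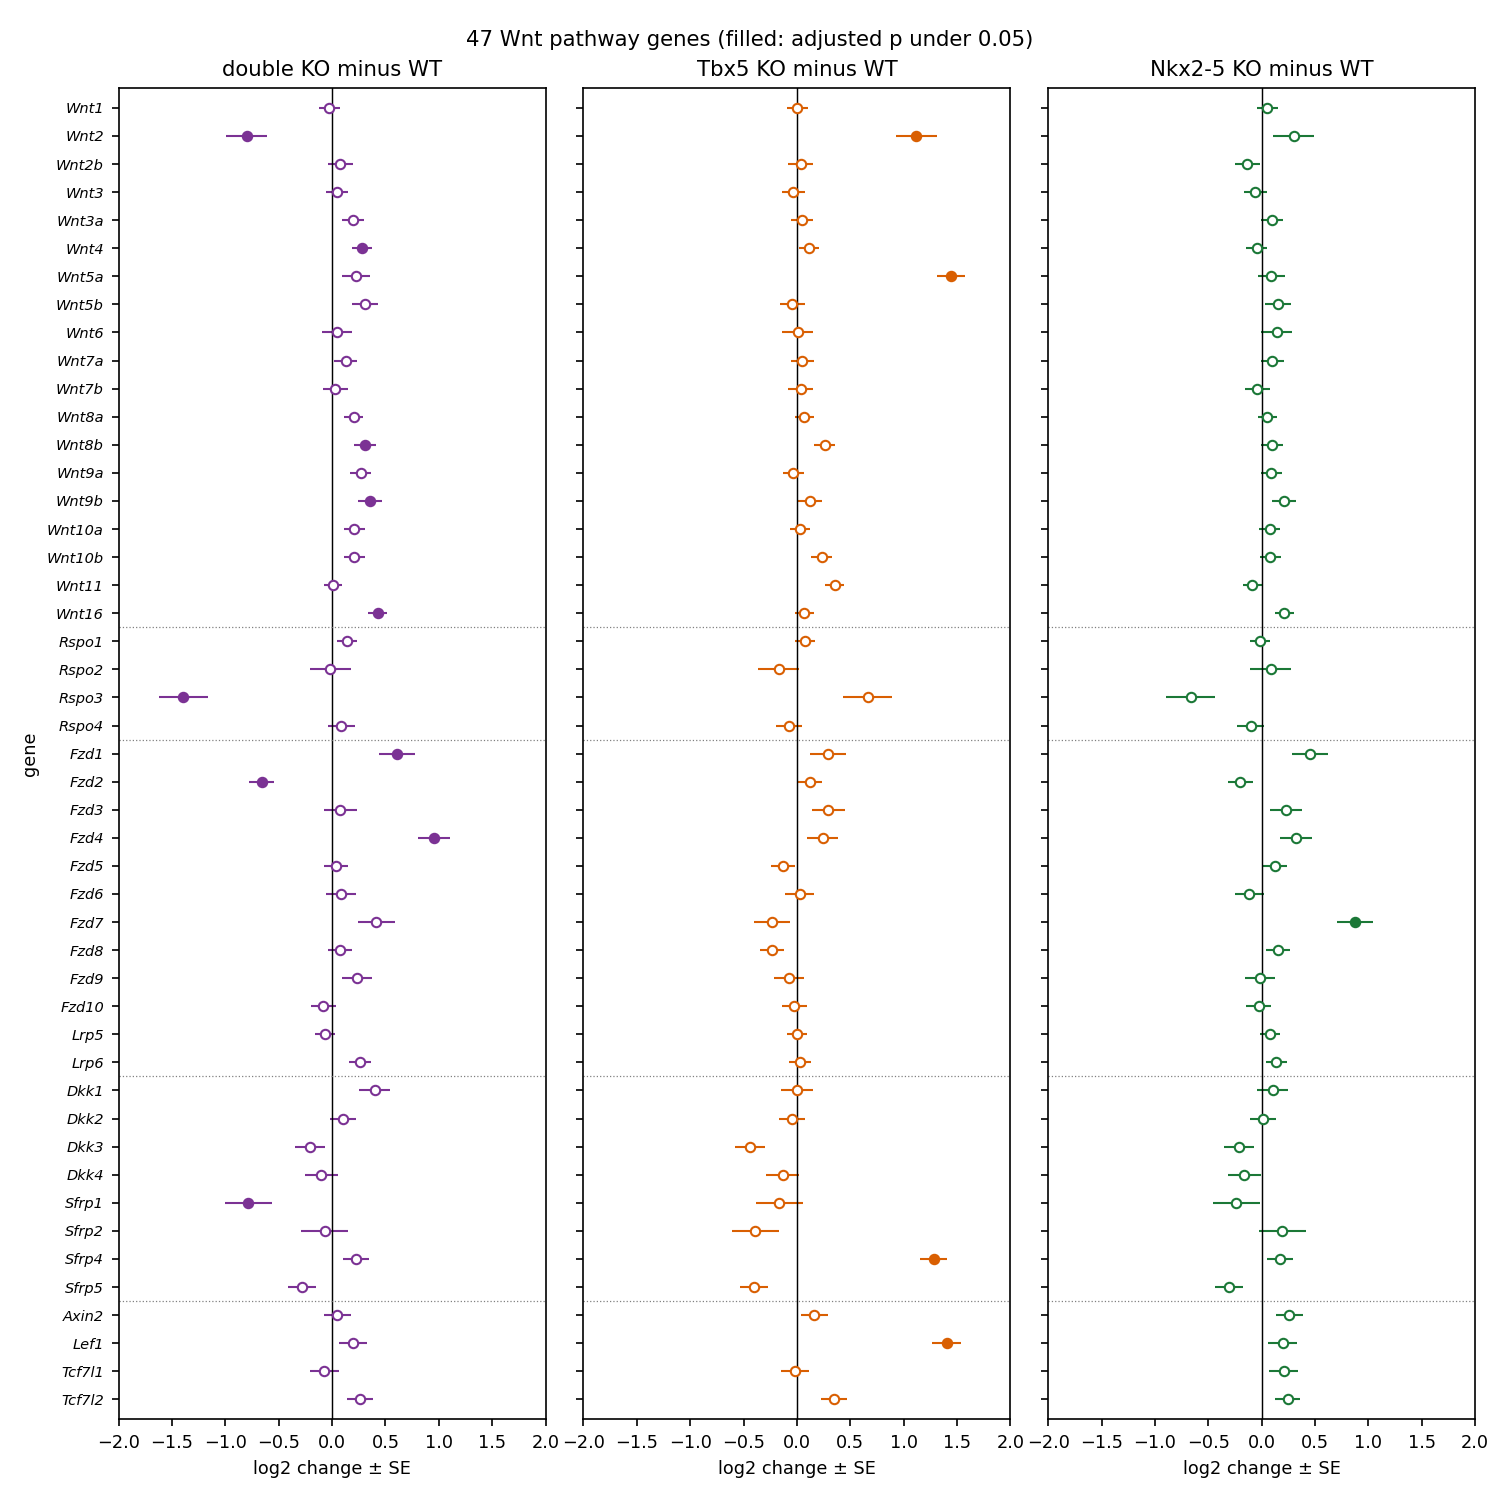
Log2 change from WT of all 47 genes in double KO, Tbx5 KO and Nkx2-5 KO hearts, with bars of ± 1 SE (n = 3 arrays per group) and filled points for calls at an adjusted p under 0.05. Most genes sit near 0, with Wnt5a, Lef1, Sfrp4 and Wnt2 on the right in Tbx5 KO hearts, and Rspo3 farthest left in double KO hearts.

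Among the ligands, Wnt2 moved in opposite directions in Tbx5 KO and double KO hearts. Wnt2 marks the inflow region and posterior second heart field, and in the mouse it is also needed for the placenta. In replicate order it read 8.29, 8.04 and 7.50 in double KO hearts, 9.83, 9.73 and 10.02 in Tbx5 KO hearts, 8.90, 8.93 and 9.30 in Nkx2-5 KO hearts, and 8.58, 8.62 and 9.02 in WT hearts. All Tbx5 KO arrays lay above all others and all double KO arrays below all others, while Nkx2-5 KO and WT overlapped. Wnt2 rose by 1.12 ± 0.19 in Tbx5 KO hearts against WT (2.17-fold, adjusted p = 0.00969) and fell by 0.80 ± 0.19 in double KO hearts against WT (adjusted p = 0.00942). In Nkx2-5 KO hearts the change was 0.30 ± 0.19 (adjusted p = 0.48). Between double KO and Tbx5 KO hearts it was -1.92 ± 0.19 (adjusted p = 0.000104).

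Wnt5a, a ligand for outflow tract formation, was high in Tbx5 KO hearts alone. It read 9.00, 9.04 and 9.36 in double KO, 10.36, 10.19 and 10.49 in Tbx5 KO, 8.83, 9.23 and 8.93 in Nkx2-5 KO, and 8.99, 8.88 and 8.85 in WT hearts. The Tbx5 KO arrays did not overlap any other group, and the other groups lay within about the same range. Wnt5a rose by 1.44 ± 0.13 in Tbx5 KO hearts against WT (2.72-fold, adjusted p = 8.23e-05). Its change in double KO hearts was 0.23 ± 0.13 (adjusted p = 0.227, 95% interval -0.05 to 0.51), and in Nkx2-5 KO hearts 0.09 ± 0.13 (adjusted p = 0.827).

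Wnt11, which like Wnt5a acts in the outflow tract, was again highest in Tbx5 KO hearts, by a smaller amount. It read 8.15, 8.29 and 8.23 in double KO, 8.56, 8.51 and 8.62 in Tbx5 KO, 8.05, 8.09 and 8.24 in Nkx2-5 KO, and 8.26, 8.23 and 8.15 in WT hearts. Its change of 0.35 ± 0.09 in Tbx5 KO hearts against WT missed the threshold (adjusted p = 0.0538), although the arrays did not overlap. It was higher in Tbx5 KO than in Nkx2-5 KO hearts by 0.44 ± 0.09 (adjusted p = 0.0162), and the double KO change from Tbx5 KO was -0.34 ± 0.09 (adjusted p = 0.023). The first call was lost without replicate 1 or 2 of Nkx2-5 KO or replicate 1 or 3 of Tbx5 KO or with only the arrays compared (adjusted p 0.0528 to 0.0916). The second was lost without replicate 1 or 3 of Tbx5 KO or replicate 1 of double KO or with only the arrays compared (0.0634 to 0.0798).

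A further 4 ligands rose in double KO hearts against WT by small amounts. Wnt16 read 7.75, 7.72 and 7.85 in double KO, 7.51, 7.38 and 7.36 in Tbx5 KO, 7.42, 7.60 and 7.65 in Nkx2-5 KO, and 7.34, 7.38 and 7.32 in WT hearts, a change from WT of 0.43 ± 0.09 (adjusted p = 0.0043). Wnt16 was also higher in double KO than in Tbx5 KO hearts, by 0.36 ± 0.09 (adjusted p = 0.0224). All double KO arrays of Wnt16 lay above all others. Wnt9b read 8.70, 8.82 and 8.58 in double KO, 8.59, 8.53 and 8.28 in Tbx5 KO, 8.47, 8.48 and 8.70 in Nkx2-5 KO, and 8.36, 8.23 and 8.44 in WT hearts, a change from WT of 0.36 ± 0.11 (adjusted p = 0.0383). Wnt8b, one of 2 genes of the 47 in the dimmest 25% of all genes, read 7.18, 7.35 and 7.19 in double KO, 7.23, 7.09 and 7.25 in Tbx5 KO, 6.98, 6.97 and 7.13 in Nkx2-5 KO, and 6.97, 6.78 and 7.04 in WT hearts, a change from WT of 0.31 ± 0.10 (adjusted p = 0.0414). Wnt4 read 9.63, 9.88 and 9.64 in double KO, 9.60, 9.60 and 9.45 in Tbx5 KO, 9.42, 9.35 and 9.39 in Nkx2-5 KO, and 9.40, 9.38 and 9.52 in WT hearts, a change from WT of 0.28 ± 0.10 (adjusted p = 0.0484). Its second, dimmer probe set changed by 0.06. For all 4, double KO and WT arrays did not overlap. These small rises depended on the setting: the call against WT was lost under 15 of 20 alternatives for Wnt4, 11 of 19 for Wnt8b, 8 of 20 for Wnt9b and 1 of 20 for Wnt16. Leaving out replicate 1 or 2 of WT, or replicate 1 or 2 of double KO, ended the calls of Wnt4, Wnt8b and Wnt9b. Those of Wnt4 and Wnt8b were also lost without replicate 1 of Nkx2-5 KO or Tbx5 KO, that of Wnt8b without replicate 3 of double KO, and that of Wnt4 without WT replicate 3 or replicate 2 or 3 of Nkx2-5 KO or replicate 2 of Tbx5 KO. Over all alternatives that lost a call, adjusted p was 0.0527 to 0.211 for Wnt4, 0.0549 to 0.333 for Wnt8b and 0.0535 to 0.142 for Wnt9b, and it was 0.0566 for Wnt16 after quantile normalization again. The Wnt16 difference from Tbx5 KO was lost under 7 alternatives (0.0507 to 0.0919), among them without replicate 2 or 3 of Tbx5 KO or replicate 1 or 3 of double KO. The other 12 ligands (Wnt1, Wnt2b, Wnt3, Wnt3a, Wnt5b, Wnt6, Wnt7a, Wnt7b, Wnt8a, Wnt9a, Wnt10a and Wnt10b) changed by -0.14 to 0.31 from WT, and none was called in any comparison.

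Rspo3, an R-spondin that amplifies Wnt signals and is needed in the mouse for the placenta and for vessels, had the largest difference between any 2 of the 4 groups among the 47 genes, that between double KO and Tbx5 KO hearts. It read 8.96, 9.32 and 8.62 in double KO, 10.71, 11.26 and 11.10 in Tbx5 KO, 9.90, 9.40 and 9.78 in Nkx2-5 KO, and 10.83, 10.16 and 10.08 in WT hearts. Double KO arrays lay below all others, and Tbx5 KO overlapped WT through WT replicate 1. Rspo3 fell by 1.39 ± 0.23 in double KO hearts against WT (adjusted p = 0.000892). The changes of 0.66 ± 0.23 in Tbx5 KO hearts (adjusted p = 0.17) and -0.67 ± 0.23 in Nkx2-5 KO hearts (adjusted p = 0.13) did not pass, yet the single KO groups differed by 1.33 ± 0.23, Tbx5 KO being higher than Nkx2-5 KO (adjusted p = 0.00724). Double KO differed from Tbx5 KO by -2.06 ± 0.23 (adjusted p = 0.000204). Rspo1, Rspo2 and Rspo4 lay between -0.17 and 0.14 of WT in the KO groups and were called nowhere.

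**Figure D2:**
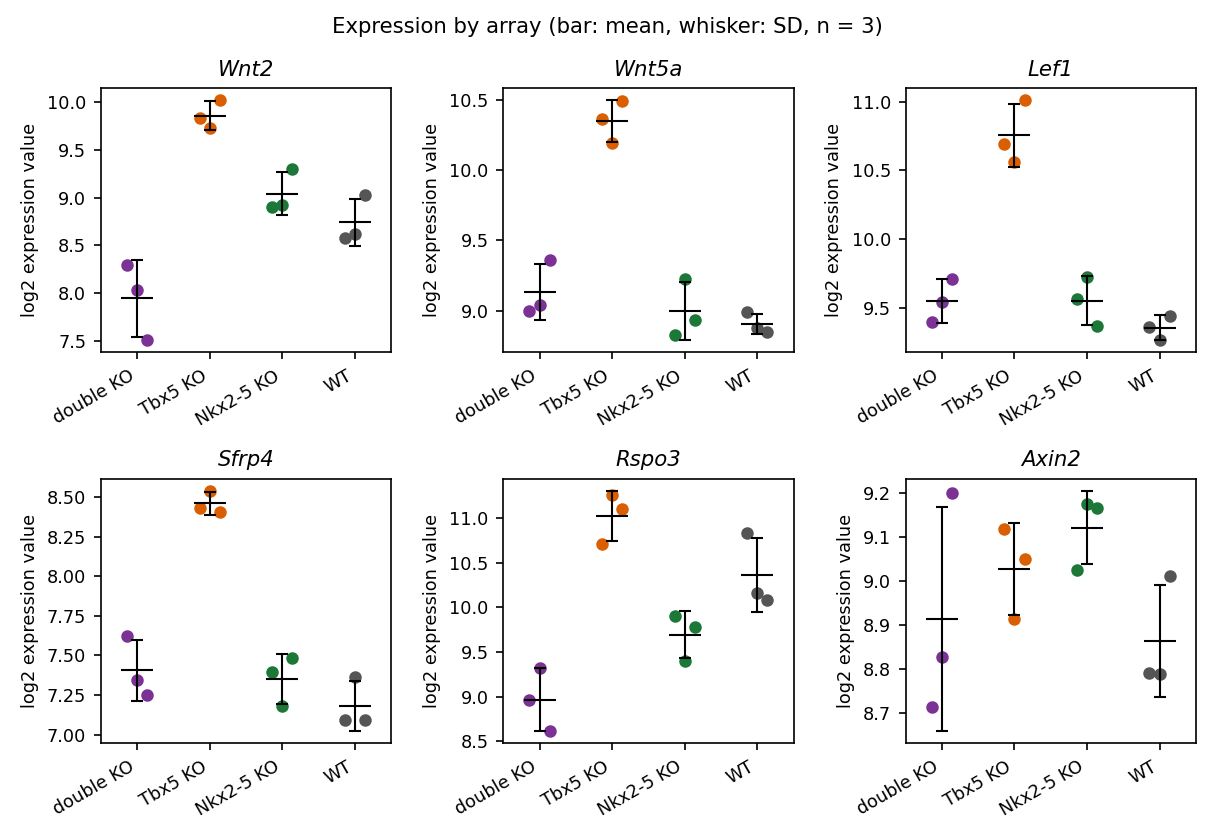
Log2 expression of Wnt2, Wnt5a, Lef1, Sfrp4, Rspo3 and Axin2 on each of the 12 arrays, grouped as double KO, Tbx5 KO, Nkx2-5 KO and WT, with each array a point and the group mean a short line ± SD. Wnt2, Wnt5a, Lef1 and Sfrp4 are highest on all 3 Tbx5 KO arrays, Wnt2 and Rspo3 are lowest on all 3 double KO arrays, and the Axin2 groups overlap or nearly meet.

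Among the receptors, 4 Frizzled genes changed, in different genotypes. Fzd7, a receptor widely used in early mesoderm, read 11.07, 10.79 and 11.02 in double KO, 10.24, 10.12 and 10.56 in Tbx5 KO, 11.49, 11.40 and 11.37 in Nkx2-5 KO, and 10.10, 10.81 and 10.71 in WT hearts. All Nkx2-5 KO arrays lay above all others, and WT replicate 1 lay below the other WT arrays. Fzd7 rose by 0.87 ± 0.17 in Nkx2-5 KO hearts against WT (adjusted p = 0.0159, and 0.0689 without Nkx2-5 KO replicate 1). It was lower in Tbx5 KO than in Nkx2-5 KO hearts, by -1.11 ± 0.17 (adjusted p = 0.00339). It was higher in double KO than in Tbx5 KO hearts by 0.65 ± 0.17 (adjusted p = 0.0283), a call lost with centred arrays or without replicate 1 or 2 of Tbx5 KO or replicate 1 or 3 of double KO (0.0673 to 0.0974).

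Fzd4, which also serves as the receptor of Norrin and is prominent in endothelium, was highest in double KO hearts. It read 11.00, 10.75 and 10.89 in double KO, 10.03, 10.05 and 10.43 in Tbx5 KO, 10.20, 10.34 and 10.22 in Nkx2-5 KO, and 9.80, 10.27 and 9.72 in WT hearts. The double KO arrays lay above all others, which overlapped among themselves. Fzd4 rose by 0.95 ± 0.15 in double KO hearts against WT (adjusted p = 0.000645), and by 0.71 ± 0.15 against Tbx5 KO (adjusted p = 0.00855). Against Nkx2-5 KO the difference was 0.63 ± 0.15 (adjusted p = 0.029), a call lost under 8 alternatives, including each that left out a Nkx2-5 KO or a double KO array (0.0534 to 0.1).

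Fzd2, a receptor for Wnt5a among others, was lowest in double KO hearts, at 8.84, 8.82 and 8.91, with 9.71, 9.55 and 9.64 in Tbx5 KO, 9.37, 9.35 and 9.22 in Nkx2-5 KO, and 9.40, 9.81 and 9.34 in WT hearts. Again no double KO array overlapped another group. Fzd2 fell by 0.66 ± 0.12 in double KO hearts against WT (adjusted p = 0.00148), and differed from Tbx5 KO by -0.78 ± 0.12 (adjusted p = 0.00123). The double KO difference from Nkx2-5 KO, -0.46 ± 0.12 (adjusted p = 0.0408), was lost under 10 alternatives, including each that left out a double KO, Tbx5 KO or Nkx2-5 KO array (0.0505 to 0.133). Fzd1 read 10.19, 10.04 and 10.25 in double KO, 9.77, 9.86 and 9.91 in Tbx5 KO, 9.92, 9.97 and 10.14 in Nkx2-5 KO, and 9.09, 9.94 and 9.62 in WT hearts. WT replicate 1 was its lowest array and widened the WT group. Fzd1 rose by 0.61 ± 0.17 in double KO hearts against WT (adjusted p = 0.0196), and the call was lost without WT replicate 1 or replicate 1 or 3 of double KO, with centred arrays and with only the arrays compared (0.053 to 0.0712). The other 6 Frizzled genes and the co-receptor genes Lrp5 and Lrp6 changed by -0.23 to 0.29 from WT and were called nowhere.

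**Figure D3:**
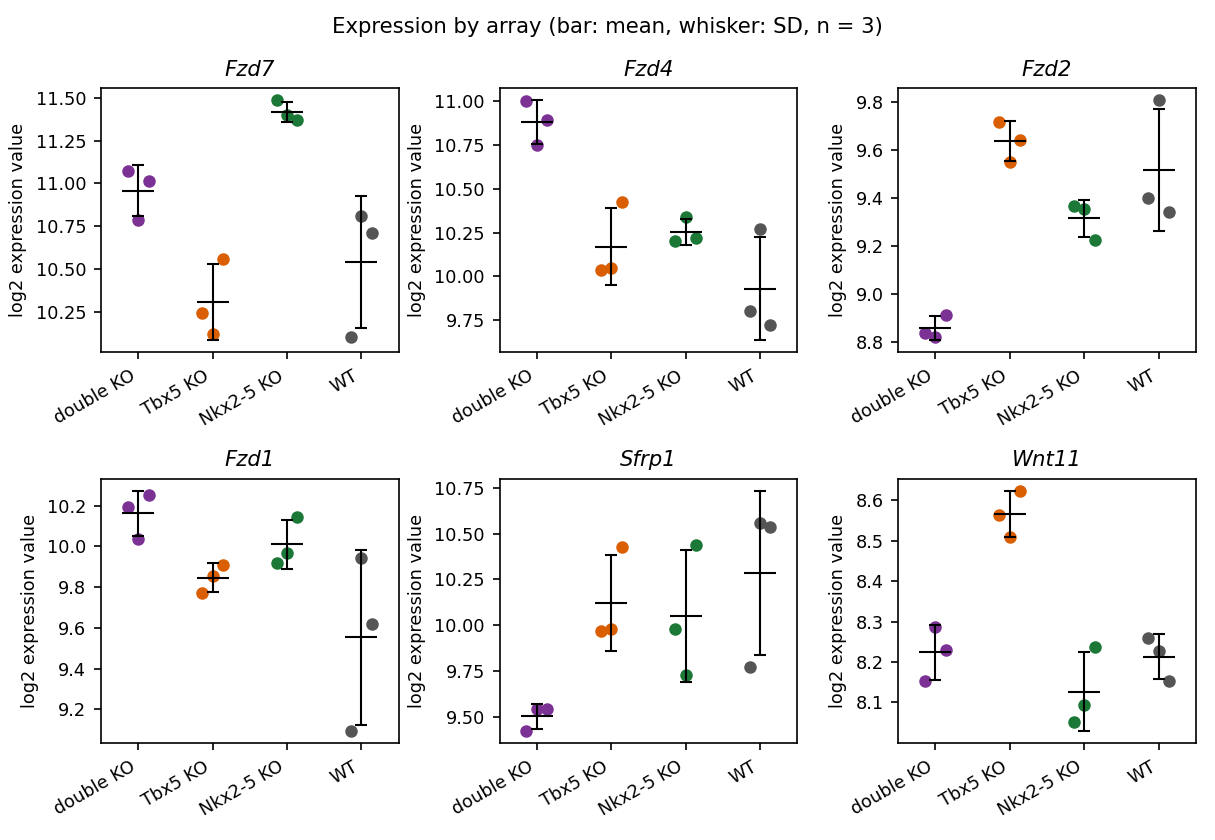
Log2 expression of Fzd7, Fzd4, Fzd2, Fzd1, Sfrp1 and Wnt11 on each array, grouped as double KO, Tbx5 KO, Nkx2-5 KO and WT, with group means as short lines ± SD. Fzd4 is highest and Fzd2 lowest on all 3 double KO arrays, Fzd7 is highest on all 3 Nkx2-5 KO arrays, and WT replicate 1 is the lowest WT array for Fzd7, Fzd1 and Sfrp1.

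Among the secreted inhibitors, Sfrp4 followed the pattern of Wnt5a. It read 7.62, 7.34 and 7.25 in double KO, 8.43, 8.54 and 8.41 in Tbx5 KO, 7.39, 7.18 and 7.48 in Nkx2-5 KO, and 7.09, 7.36 and 7.09 in WT hearts. Only the Tbx5 KO arrays stood clear of the other groups. Sfrp4 rose by 1.28 ± 0.12 in Tbx5 KO hearts against WT (2.43-fold, adjusted p = 0.000138), and its changes were 0.22 ± 0.12 in double KO (adjusted p = 0.205) and 0.17 ± 0.12 in Nkx2-5 KO hearts (adjusted p = 0.551). Sfrp1, a related inhibitor, read 9.43, 9.54 and 9.54 in double KO, 9.97, 9.98 and 10.43 in Tbx5 KO, 9.98, 9.73 and 10.44 in Nkx2-5 KO, and 9.77, 10.56 and 10.53 in WT hearts. Its double KO arrays lay below all others. Sfrp1 fell by 0.78 ± 0.22 in double KO hearts against WT (adjusted p = 0.021), a call lost without replicate 2 or 3 of WT or replicate 1 or 2 of double KO (0.0539 to 0.082). The other 6 inhibitors (Sfrp2, Sfrp5 and Dkk1 to Dkk4) changed by -0.44 to 0.40 from WT and were not called, with Dkk1 at 0.40 ± 0.15 in double KO hearts (adjusted p = 0.068).

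Lef1, the nuclear partner of beta-catenin and itself a common target of the pathway, rose in Tbx5 KO hearts, while Axin2, a feedback inhibitor often used as a readout of beta-catenin signalling, passed the test in no comparison. Lef1 read 9.40, 9.54 and 9.71 in double KO, 10.70, 10.56 and 11.01 in Tbx5 KO, 9.56, 9.72 and 9.37 in Nkx2-5 KO, and 9.36, 9.26 and 9.44 in WT hearts. The Tbx5 KO arrays lay above all others, and the remaining groups overlapped. Lef1 rose by 1.40 ± 0.13 in Tbx5 KO hearts against WT (2.64-fold, adjusted p = 0.000138), with 0.20 ± 0.13 in double KO (adjusted p = 0.312) and 0.20 ± 0.13 in Nkx2-5 KO hearts (adjusted p = 0.52). Axin2 read 8.71, 8.83 and 9.20 in double KO, 9.12, 8.91 and 9.05 in Tbx5 KO, 9.03, 9.18 and 9.17 in Nkx2-5 KO, and 8.79, 8.79 and 9.01 in WT hearts. Its change was 0.05 (95% interval -0.22 to 0.32) in double KO, 0.16 (-0.11 to 0.44) in Tbx5 KO and 0.26 (-0.01 to 0.53) in Nkx2-5 KO hearts. Tcf7l1 and Tcf7l2, further nuclear partners of beta-catenin, changed by -0.07 to 0.35 from WT and were not called.

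The crossed design asks whether loss of Tbx5 acts alike with and without Nkx2-5. Without Nkx2-5 (double KO against Nkx2-5 KO), 1 of the 47 genes was higher and 2 were lower, beside 1.01% of all genes called higher and 4.55% called lower. Loss of Tbx5 changed Wnt2 by -1.10 ± 0.19 there (adjusted p = 0.00614), opposite in sign to its rise of 1.12 ± 0.19 in the presence of Nkx2-5. Lef1 changed by -0.00 ± 0.13 without Nkx2-5 (adjusted p = 0.998, 95% interval -0.29 to 0.29), Wnt5a by 0.14 ± 0.13 (adjusted p = 0.561) and Sfrp4 by 0.05 ± 0.12 (adjusted p = 0.82). The difference between both effects is the non-additive term, the double KO change less the 2 single KO changes added together. Since the hearts without and with Nkx2-5 also differ in sex, the 2 cannot be told apart as the source of a difference between both effects. The term was -2.22 ± 0.27 for Wnt2 (adjusted p = 0.00443), -1.40 ± 0.19 for Lef1 (adjusted p = 0.00666), -1.31 ± 0.18 for Wnt5a (adjusted p = 0.0076) and -1.23 ± 0.17 for Sfrp4 (adjusted p = 0.0076). These 4 were called lower (8.51% of the 47, beside 0.456% of all genes) and 0 were called higher (beside 0.0903%). All 4 calls were kept under all 19 alternatives run for this term. The alternative that left out the dimmest genes used a cut of 7.32. Sfrp4 averaged 7.18 in WT, 7.35 in Nkx2-5 KO, 7.41 in double KO and 8.46 in Tbx5 KO hearts. Outside Tbx5 KO hearts it thus lay near or below the cut, and its high Tbx5 KO level helped to keep it in. For Sfrp4 that alternative is therefore no independent check. For Rspo3 the term was -1.39 ± 0.32 (adjusted p = 0.0923, and 0.0396 without WT replicate 1). Among the receptors it was -0.58 ± 0.17 for Fzd2 (adjusted p = 0.204), and no receptor was called.

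**Figure D4:**
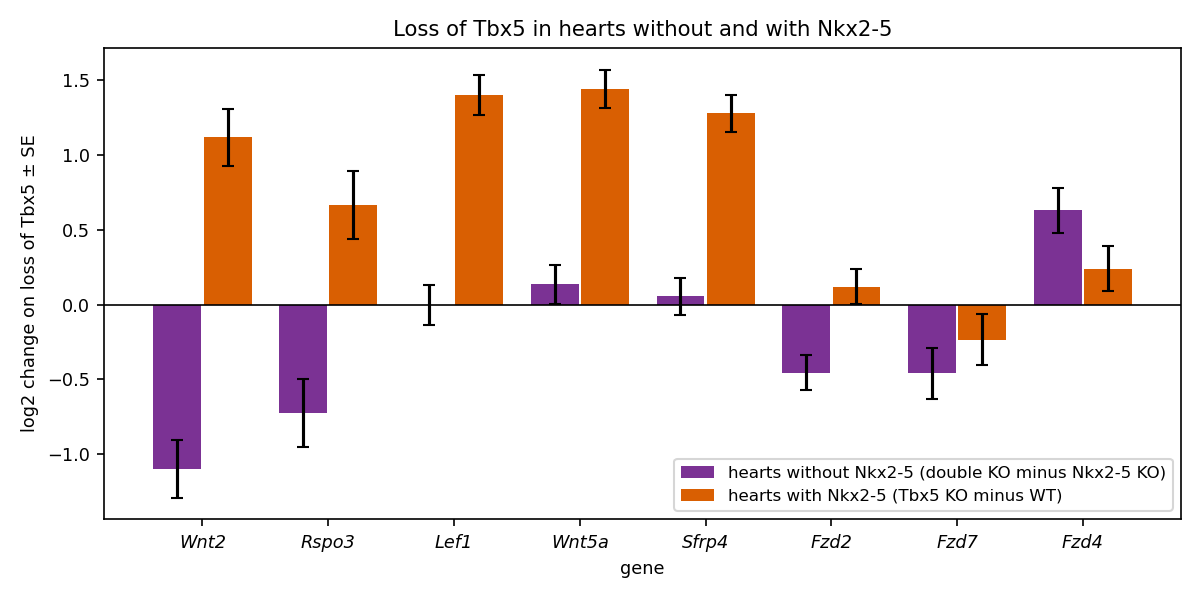
Log2 change on loss of Tbx5 without Nkx2-5 (double KO minus Nkx2-5 KO) and with it (Tbx5 KO minus WT) for 8 genes, as bars with ± 1 SE, n = 3 arrays per group. The Wnt2 bars point in opposite directions (-1.10 and 1.12), and for Lef1, Wnt5a and Sfrp4 the bars without Nkx2-5 stay near 0.

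The single KO groups and the double KO were also set against each other. In Tbx5 KO against Nkx2-5 KO, 6 of the 47 genes were higher (12.8%, beside 1.01% of all genes) and 1 was lower (2.13%, beside 1.37%). Beside Rspo3, Wnt11 and Fzd7 above, these were Wnt5a (1.35 ± 0.13, adjusted p = 0.000109), Lef1 (1.21 ± 0.13, adjusted p = 0.00033), Sfrp4 (1.11 ± 0.12, adjusted p = 0.000329) and Wnt2 (0.82 ± 0.19, adjusted p = 0.0445). The Wnt2 difference was lost under 9 alternatives: the replicate block, and without replicate 2 of double KO, any Tbx5 KO array, replicate 1 or 2 of Nkx2-5 KO or replicate 1 or 2 of WT (0.0513 to 0.182). In double KO against Tbx5 KO, 3 were higher (6.38%, beside 2.87% of all genes) and 7 were lower (14.9%, beside 7.86%). The lower ones included Lef1 (-1.21 ± 0.13, adjusted p = 0.000196), Wnt5a (-1.21 ± 0.13, adjusted p = 0.000152) and Sfrp4 (-1.06 ± 0.12, adjusted p = 0.000242). These comparisons share arrays with those against WT and are not independent of them.

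Markers of placental tissue moved with the genes that rose in Tbx5 KO hearts. Of 16 measured trophoblast and decidua genes, 5 rose (31.2%, beside 0.998% of all genes) and 0 fell (beside 1.31%) in Tbx5 KO hearts against WT. In Nkx2-5 KO hearts 0 were called, beside 1.84% of all genes called higher and 2.59% lower. In double KO hearts 1 rose (6.25%, beside 9.05%) and 0 fell (beside 14.4%). The summed level of the 16 was 11.47 to 11.59 in double KO, 12.92 to 13.14 in Tbx5 KO, 11.43 to 11.56 in Nkx2-5 KO and 11.35 to 11.41 in WT hearts, so Tbx5 KO stood clear of the other groups. Prl3d3, a placental lactogen gene of trophoblast giant cells, read 5.61, 4.98 and 5.57 in double KO, 10.56, 9.71 and 9.40 in Tbx5 KO, 5.94, 7.40 and 6.72 in Nkx2-5 KO, and 5.25, 5.79 and 5.67 in WT hearts. Prl3d3 rose by 4.32 ± 0.35 in Tbx5 KO hearts (adjusted p = 4.71e-05), Erv3 by 3.54 ± 0.19 (adjusted p = 1.49e-06), Prl8a2, a decidual prolactin gene, by 3.15 ± 0.27 (adjusted p = 5.47e-05), Rhox9 by 1.88 ± 0.15 and Rhox6 by 1.49 ± 0.13. The trophoblast genes Tpbpa (0.12, adjusted p = 0.635), Ascl2 (0.19, adjusted p = 0.668), Elf5 (0.18, adjusted p = 0.58) and Plac1 (0.32, adjusted p = 0.293) were not called. The non-additive term was also called lower for 5 of the 16 (31.2%, beside 0.456% of all genes). The part of placental RNA in the rises of Wnt2, Wnt5a, Lef1 and Sfrp4 was not tested.

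Other cell type markers moved with the double KO. Of 12 endocardial and endothelial genes, 4 fell against WT (Npr3, by 1.24, Tek, by 1.19, Emcn, by 0.68, and Nfatc1, by 0.62) and Flt1 rose by 1.09, beside the rise of Fzd4. The falls were 33.3% of the list, beside 14.4% of all genes, and the rise was 8.33%, beside 9.05%. The summed level of that list was 13.47 to 13.58 in double KO, 13.43 to 13.61 in Tbx5 KO, 13.73 to 13.97 in Nkx2-5 KO and 13.27 to 14.02 in WT hearts, with WT replicate 1 the lowest array. Of 7 blood genes, 4 fell in double KO hearts (57.1%, beside 14.4% of all genes) and 0 were called in either single KO. The summed level of the blood list was 12.94 to 14.33 in double KO, 14.70 to 14.76 in Tbx5 KO, 14.45 to 15.42 in Nkx2-5 KO and 14.40 to 15.50 in WT hearts. Of 10 second heart field genes, 4 rose and 1 fell in double KO, 0 rose and 1 fell in Tbx5 KO, and 2 rose and 0 fell in Nkx2-5 KO hearts. Of all genes, 9.05% rose and 14.4% fell in double KO, 0.998% and 1.31% in Tbx5 KO, and 1.84% and 2.59% in Nkx2-5 KO hearts. The summed level of the second heart field list was 13.34 to 13.68 in double KO, 12.93 to 13.05 in Tbx5 KO, 13.41 to 13.46 in Nkx2-5 KO and 12.85 to 13.22 in WT hearts, so both groups without Nkx2-5 lay above the others. The brightest genes set this sum, and its genes did not all rise. In double KO hearts 5 of the 10 were not called, with changes of -1.36 to 1.48. In Nkx2-5 KO hearts 8 were not called, with changes of -0.15 to 1.85 over the list. The part of these cell types in the changes of Fzd7, Fzd4, Fzd2, Fzd1, Sfrp1, Rspo3 and Wnt2 was not tested.

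**Figure D5:**
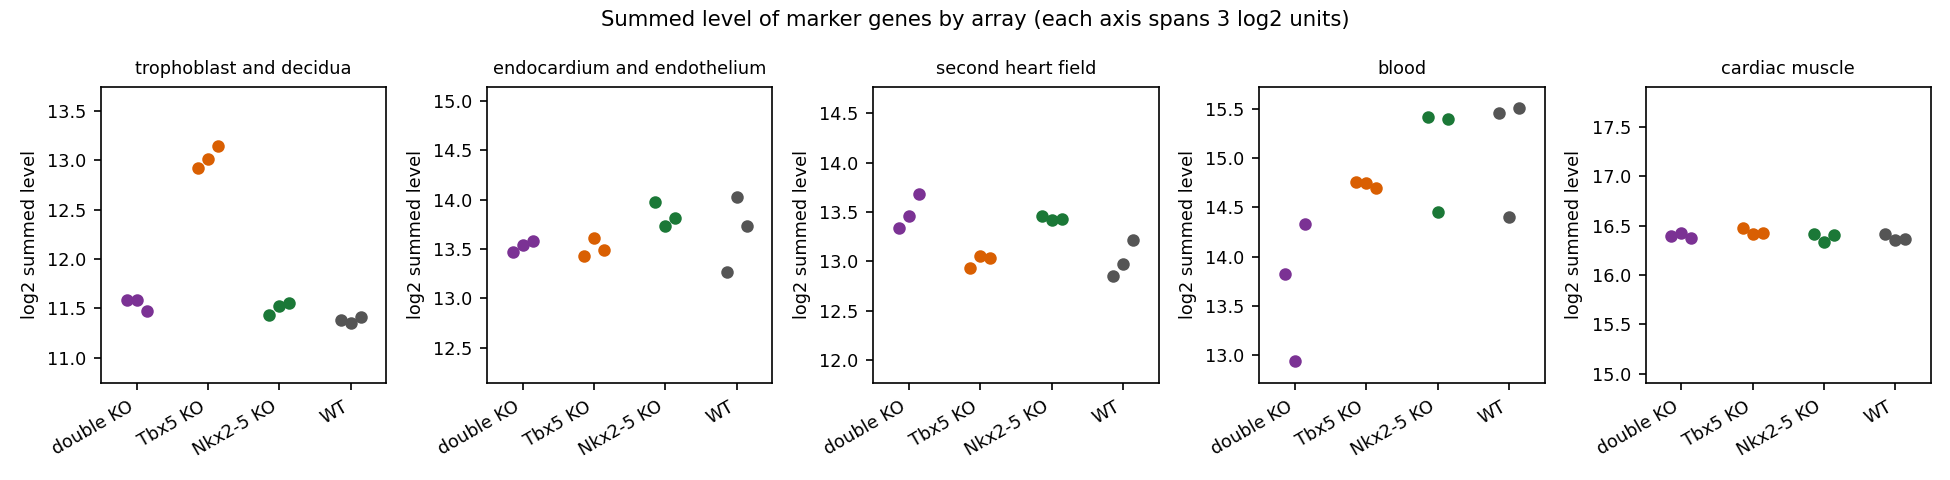
Log2 of the summed level of 5 marker lists on each array, grouped as double KO, Tbx5 KO, Nkx2-5 KO and WT, with every vertical axis spanning 3 log2 units. The trophoblast and decidua sum is high on the Tbx5 KO arrays alone (12.92 to 13.14), and the second heart field sum is high in both groups without Nkx2-5. The summed cardiac muscle level lies between 16.34 and 16.48 on all arrays. The brightest genes of each list set its sum.

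Beyond the 47, 82 measured genes were read: further pathway components and 11 common transcriptional targets, among them Tbx3, Tnfrsf19, Myc, Ccnd1 and Ccnd2. The 82 are called other pathway genes below. The targets held 3 of the 4 calls against WT in Nkx2-5 KO hearts and 3 of 4 in Tbx5 KO hearts. In double KO hearts they held 2 of 15. Of the 11, 18.2% were called higher and 9.09% lower in Nkx2-5 KO hearts, and 9.09% and 18.2% in Tbx5 KO hearts. In double KO hearts 0% were called higher and 18.2% lower. Over all genes these shares were 1.84% and 2.59%, 0.998% and 1.31%, and 9.05% and 14.4%, in the same order. In Nkx2-5 KO hearts 2 rose (2.44% of the 82, beside 1.84% of all genes) and 2 fell (2.44%, beside 2.59%) against WT, near the shares of all genes. Tbx3, a transcription factor gene of the atrioventricular canal and sinus node, rose by 0.93 ± 0.16 (adjusted p = 0.00876, and 0.0516 without Nkx2-5 KO replicate 1), and the receptor gene Tnfrsf19 rose by 0.87 ± 0.14 (adjusted p = 0.00644). Cby1, whose product binds beta-catenin, fell by 0.71 ± 0.15 (adjusted p = 0.0223, and 0.0545 to 0.0859 without any 1 Nkx2-5 KO array or WT replicate 1 or 3), and Myc fell by 0.49 ± 0.13 (adjusted p = 0.0484). In Tbx5 KO hearts 2 rose (2.44%, beside 0.998% of all genes) and 2 fell (2.44%, beside 1.31%). The cell cycle genes moved apart there: Ccnd2 rose by 0.51 ± 0.10 (adjusted p = 0.0185) while Ccnd1 fell by 0.66 ± 0.14 (adjusted p = 0.0291), and Myc fell by 1.08 ± 0.13 (adjusted p = 0.000773). Porcn, an X-linked gene whose enzyme acylates Wnt ligands for secretion, rose by 0.46 ± 0.11 (adjusted p = 0.0468). It also rose in double KO hearts against WT, by 0.43 (adjusted p = 0.0125, and 0.0809 with centred arrays). In Nkx2-5 KO hearts Porcn was not called, though its arrays (9.00, 9.09 and 9.08) lay above all WT arrays (8.79, 8.72 and 8.67). The Porcn call in Tbx5 KO hearts was lost under 16 of 20 alternatives (0.0541 to 0.155). That of Myc in Nkx2-5 KO hearts was lost under 12 (0.0512 to 0.19). Most single arrays left out were among both. The calls of Ccnd1 (0.0855 to 0.114) and Ccnd2 (0.0535 to 0.0723) were lost with only the arrays compared and without WT replicate 3, that of Ccnd1 also without replicate 2 or 3 of Tbx5 KO or replicate 1 of WT, and that of Ccnd2 also without replicate 1 of Tbx5 KO or replicate 2 of WT.

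In double KO hearts 8 of the 82 rose (9.76%, beside 9.05% of all genes) and 7 fell (8.54%, beside 14.4%) against WT, the first near and the second below the share of all genes. The largest rise was that of Frzb, which encodes a secreted Wnt-binding inhibitor and is also known as Sfrp3: it read 9.49, 8.70 and 10.16 in double KO, 7.83, 7.42 and 6.99 in Tbx5 KO, 8.60, 9.62 and 7.23 in Nkx2-5 KO, and 7.16, 7.60 and 7.53 in WT hearts. Double KO and WT arrays did not overlap, and the Nkx2-5 KO arrays spread over both. Frzb rose by 2.02 ± 0.49 (adjusted p = 0.0101). Tnks, which encodes tankyrase, an enzyme of Axin turnover, rose by 0.71 ± 0.14 (adjusted p = 0.00236), the glypican gene Gpc4 by 0.59 ± 0.09 (adjusted p = 0.000668) and the corepressor gene Tle1 by 0.57 ± 0.12 (adjusted p = 0.00529). The largest fall was that of Myc, a proliferation gene and common beta-catenin target, which read 8.54, 8.77 and 8.79 in double KO, 9.20, 8.86 and 8.94 in Tbx5 KO, 9.46, 9.75 and 9.55 in Nkx2-5 KO, and 10.26, 9.96 and 10.01 in WT hearts. All KO arrays lay below all WT arrays. Myc fell by 1.37 ± 0.13 (adjusted p = 2.41e-05), Ccnd1 by 1.09 ± 0.14 (adjusted p = 0.000179), Cby1 by 0.77 ± 0.15 (adjusted p = 0.00288) and the R-spondin receptor gene Lgr4 by 0.71 ± 0.16 (adjusted p = 0.0063). The median change of the 82 was 0.04 in double KO, 0.02 in Tbx5 KO and 0.04 in Nkx2-5 KO hearts. Of the 82, only Tnfrsf19 was called in the non-additive term, at -1.02 ± 0.20 (adjusted p = 0.0416). This is 1.22% called lower, beside 0.456% of all genes, and 0% called higher, beside 0.0903%.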

How the data were processed

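Per the labels' protocols, PicoPure-purified heart RNA was turned into cDNA and amplified by the NuGEN Ovation method, then biotin-labelled. The deposited table held the authors' log2 values for each probe set, from 3.21 to 14.7. Their software is not stated in the labels, and no further normalization was applied. Of 35557 probe sets, 21789 carried exactly 1 symbol in the platform annotation, 1621 several and 12147 none listed. For genes with several, the brightest probe set on average was used, which left 19938 genes, all tested. All 47 Wnt genes matched the RefSeq table of assembly GRCm38.p6, which was used for names and promoter windows only.

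Group means were fitted to all 12 arrays with limma 3.58.1 in R 4.3.3 (lmFit and eBayes, 8 residual and 4.51 prior degrees of freedom), with two-sided tests and Benjamini-Hochberg adjustment over all genes within each of 7 comparisons. In simulated data, 67 genes per KO group were truly changed from WT by 0.5 log2 units, 67 by 1 and 66 by 2. Of the changes of 0.5, the procedure called 37.3% (double KO), 43.3% (Tbx5 KO) and 25.4% (Nkx2-5 KO). For true changes of 1 the shares called were 95.5%, 98.5% and 97.0%, respectively. In the real data more genes were called against WT in every KO group, most in double KO (1804 higher and 2868 lower). More changed genes loosen the adjusted threshold. The simulated shares may therefore be too low for the real data, most of all in double KO. A gene without a call may still have changed, by 0.5 or by more. No size between 0.5 and 1 was simulated, and some changes of 1 were missed. Python 3.11.15 with scipy 1.17.1, pandas 2.3.3, numpy 2.4.6 and matplotlib 3.10.9 gave the tables and plots. Precision is limited by the number of arrays in a group.

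The Wnt genes and the gene lists were chosen with earlier results of these data known. Arrays are given for every Wnt gene called in a comparison without overlap of its groups, and up to 4 rises and 4 falls against WT are named from the other pathway genes. The summed level of a marker list is the log2 of its summed linear values. The 20 alternatives were quantile normalization again, centring on array medians, leaving out the lowest 25% of genes, the mean of all probe sets, array weights, an intensity trend, the replicate number as a block, only the arrays compared, and leaving out each of 12 arrays.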

Additional observations from a re-analysis of the deposited data

Results flagged for a closer look

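The effect of losing Tbx5 differed between hearts without and with Nkx2-5 for 4 of the 47 Wnt genes, by limma's test of that difference (the non-additive term, Benjamini-Hochberg adjusted over all genes, n = 3 arrays per group). For Wnt2 the difference was -2.22 ± 0.27 (SE, adjusted p = 0.00443): the change was -1.10 without Nkx2-5 (double KO against Nkx2-5 KO), lower in 3 of 3 double KO arrays than in every Nkx2-5 KO array, and 1.12 with it (Tbx5 KO against WT), higher in 3 of 3 Tbx5 KO arrays than in every WT array. For Lef1 it was -1.40 ± 0.19 (adjusted p = 0.00666), for Wnt5a -1.31 ± 0.18 (adjusted p = 0.0076) and for Sfrp4 -1.23 ± 0.17 (adjusted p = 0.0076). For these 3 genes every Tbx5 KO array lay above every WT array, while double KO and Nkx2-5 KO arrays overlapped. The term was also called lower for 5 of 16 measured trophoblast and decidua markers (31.2%, beside 0.456% of all genes). The summed level of these markers was high on the same 3 Tbx5 KO arrays. The part of the markers' tissue in these differences was not tested. By Xist and Y-linked genes, the hearts without Nkx2-5 also differed in sex from those with it, so sex and Nkx2-5 cannot be told apart in these differences.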

How the results depend on the processing

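Of 39 calls among the 47 Wnt genes over 7 comparisons, 25 were kept under all alternatives run, 14 were lost under at least 1 and 0 reversed direction. A further 19 differences below the threshold gained a call somewhere. Leaving out 1 array gave 0 to 2 called Wnt genes in Nkx2-5 KO against WT (0 without Nkx2-5 KO replicate 1, 2 without WT replicate 2), 4 to 4 in Tbx5 KO against WT, 5 to 10 in double KO against WT (5 without double KO replicate 1), 5 to 7 in Tbx5 KO against Nkx2-5 KO, 1 to 3 in double KO against Nkx2-5 KO (1 without replicate 1 or 2 of Nkx2-5 KO or any double KO array), 7 to 11 in double KO against Tbx5 KO and 4 to 5 for the non-additive term. It gave 1 to 5, 1 to 4 and 13 to 16 calls of other pathway genes in Nkx2-5 KO, Tbx5 KO and double KO against WT. For trophoblast and decidua markers it gave 0 to 0, 5 to 5 and 0 to 2 in the same order and 6 to 6 in double KO against Tbx5 KO, for second heart field markers 1 to 3, 1 to 1 and 3 to 5, and in double KO against WT 2 to 6 for blood and 3 to 5 for endocardium and endothelium. With only the arrays compared, 6 Wnt genes were called in double KO against WT (2 higher, 4 lower, against 10), 1 other pathway gene in Tbx5 KO (against 4) and 0 trophoblast markers in double KO (against 1, and 0 without the dimmest 25% of genes). Array weights gave 5 Wnt genes in double KO against Nkx2-5 KO (against 3), 12 other pathway genes (against 4) and 1 trophoblast marker (against 0) in Nkx2-5 KO against WT. Centring moved the median of all genes in double KO against WT by -0.12, to -0.06 from 0.06, and gave 2 higher and 5 lower Wnt genes there (against 6 and 4), 0 higher and 2 lower against Nkx2-5 KO (against 1 and 2), 1 higher and 7 lower against Tbx5 KO (against 3 and 7), and 3 second heart field markers (against 5). The causes were not tested.

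The replicate numbers did not pair the arrays: deviations of same-numbered arrays correlated at -0.27 to 0.211 over 18 pairs, 3 of them over 0.1, and 2 of 12 arrays matched their own number best. With the replicate block, Wnt genes called numbered 1 in double KO against Nkx2-5 KO (against 3), 1, 4 and 7 in Nkx2-5 KO, Tbx5 KO and double KO against WT, 6 in Tbx5 KO against Nkx2-5 KO, 10 in double KO against Tbx5 KO and 4 for the non-additive term.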

Other observations

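Markers of further tissues gave these values against WT. Of all genes, 9.05% were called higher and 14.4% lower in double KO, 0.998% and 1.31% in Tbx5 KO, and 1.84% and 2.59% in Nkx2-5 KO hearts. Of 10 proepicardial and epicardial genes, 4 fell in double KO hearts (Tbx18, by 0.94, Wt1, by 0.90, Lrrn4, by 0.64, and Upk3b, by 0.46), 2 in Tbx5 KO (Tbx18, by 0.96, and Lrrn4, by 0.75) and 0 in Nkx2-5 KO hearts. These were 40%, 20% and 0% of that list. Its summed level was 12.34 in WT replicate 2, above 11.46 and 11.66 in WT replicates 1 and 3. Of 12 neural genes, Pax6, a transcription factor gene of eye and neural tube, rose by 1.85 ± 0.16 in double KO, 0.97 ± 0.16 in Tbx5 KO and 1.70 ± 0.16 in Nkx2-5 KO hearts, and Sox1 and Zic2 rose in double KO hearts. The neural rises were 25%, 8.33% and 8.33% of the list in double KO, Tbx5 KO and Nkx2-5 KO hearts. Of 12 endodermal genes, 3 rose in double KO (25%), 1 in Tbx5 KO (8.33%) and 2 in Nkx2-5 KO hearts (16.7%). None of 10 paraxial mesoderm genes was called by limma in any comparison with WT.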
